A study of Homo sapiens with 10 samples.

Results

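The NRF2 antioxidant target genes described here are 10 genes: the transcription factor NRF2 itself (NFE2L2), its repressor KEAP1, and 8 genes that NRF2 is known to switch on, namely NQO1, AKR1B10, GCLC, GCLM, TXNRD1, SRXN1, ME1 and HMOX1. Each gene was represented by the probe set with the highest mean signal among those annotated with that 1 symbol. All 10 were among the 14313 genes tested. The rule for the probe sets used gene symbols and mean signal.

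NRF2 is a basic leucine zipper factor that cells hold at a low level while they are not under oxidative stress: KEAP1 binds it in the cytoplasm and presents it to a CUL3 ubiquitin ligase, and the proteasome destroys it. Oxidants and electrophiles modify cysteines of KEAP1, NRF2 escapes, enters the nucleus, pairs with a small MAF protein and binds antioxidant response elements near its target genes. The targets make glutathione, reduce thioredoxin and quinones, supply NADPH and break down haem, and in many tumours they stay on because KEAP1 or NRF2 is altered. Because KEAP1 acts on NRF2 protein, an mRNA measurement of NFE2L2 does not show how much active NRF2 a cell holds.

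The series measured human prostate cancer cell lines on Affymetrix arrays, 1 array per sample and 10 in all. LNCaP came from a lymph node metastasis and responds to androgen, and DU145 came from a brain metastasis and grows without androgen. Per the labels, EOS cells carried a vector with GFP and puromycin resistance under OCT4 and SOX2 enhancers and were enriched in puromycin over a few weeks. The control vector had the ubiquitous PGK promoter before the same coding genes. Each line had 1 array of EOS cells given ribavirin, 2 arrays of EOS cells and 2 arrays of PGK cells. Ribavirin is a guanosine analogue, and its dose and time are not given in the sources used here. The labels tie both ribavirin arrays to EOS cells number 2, and nothing says whether arrays 1 and 2 of a group came from separate cultures. The p-values therefore reflect how far these arrays scatter, and that scatter may be technical. All 10 samples are transduced cells, so no array shows a line without a vector.

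The core of the antioxidant response element is written TGACNNNGC, and it was searched for on both strands in RefSeq windows (GRCh38.p14) that run from 250 bases before to 50 bases after a gene's start. Such windows were at hand for 8 of the 10 genes, in 11 windows because NFE2L2, KEAP1 and TXNRD1 have more than 1. The core stood in 5 of the 11 windows, which belong to GCLM, TXNRD1, ME1 and KEAP1, and in 13.3% of all 35116 windows. The 160 bases before the start are printed for 1 window of each of these 4 genes, to show where matches to the core lie in 3 target genes and in the repressor. They are 5′ to 3′ on the gene's strand, with the matches in capitals.
GCLM, chr1:93909431-93909590, minus strand: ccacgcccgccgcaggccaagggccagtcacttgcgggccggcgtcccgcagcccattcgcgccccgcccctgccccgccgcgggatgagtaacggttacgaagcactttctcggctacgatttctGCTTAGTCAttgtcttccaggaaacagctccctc
TXNRD1, chr12:104215619-104215778, plus strand: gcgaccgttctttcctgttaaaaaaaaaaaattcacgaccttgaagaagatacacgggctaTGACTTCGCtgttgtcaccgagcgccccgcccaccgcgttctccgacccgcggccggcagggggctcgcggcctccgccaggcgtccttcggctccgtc
ME1, chr6:83431052-83431211, minus strand: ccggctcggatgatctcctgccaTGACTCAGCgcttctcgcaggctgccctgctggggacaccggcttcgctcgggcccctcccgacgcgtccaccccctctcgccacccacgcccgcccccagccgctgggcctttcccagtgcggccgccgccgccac
KEAP1, chr19:10502772-10502931, minus strand: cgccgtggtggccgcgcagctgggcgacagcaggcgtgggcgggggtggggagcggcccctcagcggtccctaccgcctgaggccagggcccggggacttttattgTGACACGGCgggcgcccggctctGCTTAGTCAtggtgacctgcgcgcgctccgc
Positions count from the start of transcription, with bases before it negative. The GCLM match lies at -34 to -26 and reads on the opposite strand. In TXNRD1 it lies at -99 to -91 on the gene's strand, and a further match, just across the start, runs over the end of the printed stretch. ME1 has 2 matches: the printed one, at -137 to -129 on the gene's strand, holds an AP-1 site, written TGACTCA or TGAGTCA, which stood in 4.95% of all windows, and the other lies after the start, at 12 to 20 on the opposite strand. KEAP1 has a match on each strand, at -54 to -46 and at -31 to -23. A match is a description of letters: no binding was measured in these samples, and elements farther away were not searched.

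The arrays fell into 2 kinds that cross the groups. The 4 arrays numbered 1 were deposited with a trimmed mean intensity of 500, and the 6 numbered 2 with 96.56 to 126.5, so every array was scaled to 500. The 3′ to 5′ ratio of ACTB, which rises as RNA is shorter, was 1.236 to 1.511 on arrays numbered 1 and 3.204 to 3.993 on those numbered 2. The same ratio of GAPDH differed less, at 0.9585 to 1.06 on arrays numbered 1 and 1.092 to 1.216 on those numbered 2. PGK and EOS groups hold both numbers equally, and both ribavirin arrays are numbered 2. Line identity was checked with markers: the summed scaled intensity of KLK3, KLK2, TMPRSS2 and HOXB13, 4 of 6 listed genes of prostate luminal cells, was 45100 to 73600 on LNCaP arrays and 56 to 114 on DU145 arrays. The sum over CD44, VIM, CAV1, ANXA1, GSTP1 and ZEB1, all 6 listed genes of mesenchymal or basal-like cells, was 1400 to 5000 in LNCaP and 61300 to 76500 in DU145. Summed markers of leukocytes (5 of 6 listed; 116 to 342 in LNCaP, 121 to 231 in DU145) and endothelium (4 of 4; 141 to 324 in LNCaP, 95.1 to 195 in DU145) were low in both lines. Fibroblast markers (7 of 7) summed to 337 to 844 in LNCaP and 447 to 3200 in DU145. The part of these marker differences in the results below was not tested.

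The lines differed in all 10 genes. LNCaP had far more KEAP1 mRNA than DU145 and less mRNA of NFE2L2 and of 7 of the 8 targets, while the target ME1 was higher in LNCaP. The lower targets were HMOX1 by 19.8-fold, GCLC by 6.92-fold, AKR1B10 by 4.69-fold, SRXN1 by 3.79-fold, TXNRD1 by 3.57-fold, NQO1 by 3.23-fold and GCLM by 2.21-fold. Levels are given as log2(scaled intensity + 16), on which the floor is 4, and a difference is LNCaP minus DU145 averaged over PGK and EOS cells, with its standard error from limma. The fit of all 10 arrays shares 1 estimate of the spread, which comes from the PGK and EOS groups because a lone ribavirin array adds none. A gene was called where its p-value, adjusted over all 14313 genes by Benjamini-Hochberg, was under 0.05. By that rule 46.3% of all genes were called, 22.6% higher and 23.7% lower in LNCaP, so a called gene is common between these lines. KEAP1 and AKR1B10 passed the filter on dim probe sets only through the 5 arrays of 1 line, so they had to differ. Of the other 8 members, which were above the median of every array, 1 was higher and 7 were lower in LNCaP, with a median difference of -1.76. Among the 9791 genes above the median of every array, 48.4% were called, 25.3% higher and 23.1% lower, and the median difference was 0.02. On the intensities as deposited, without scaling, KEAP1 and HMOX1 were called and the other 8 members were not, beside 3.36% of all genes. In bulk RNA, fewer cells that express a gene and less RNA per cell cannot be told apart.

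**Figure D1:**
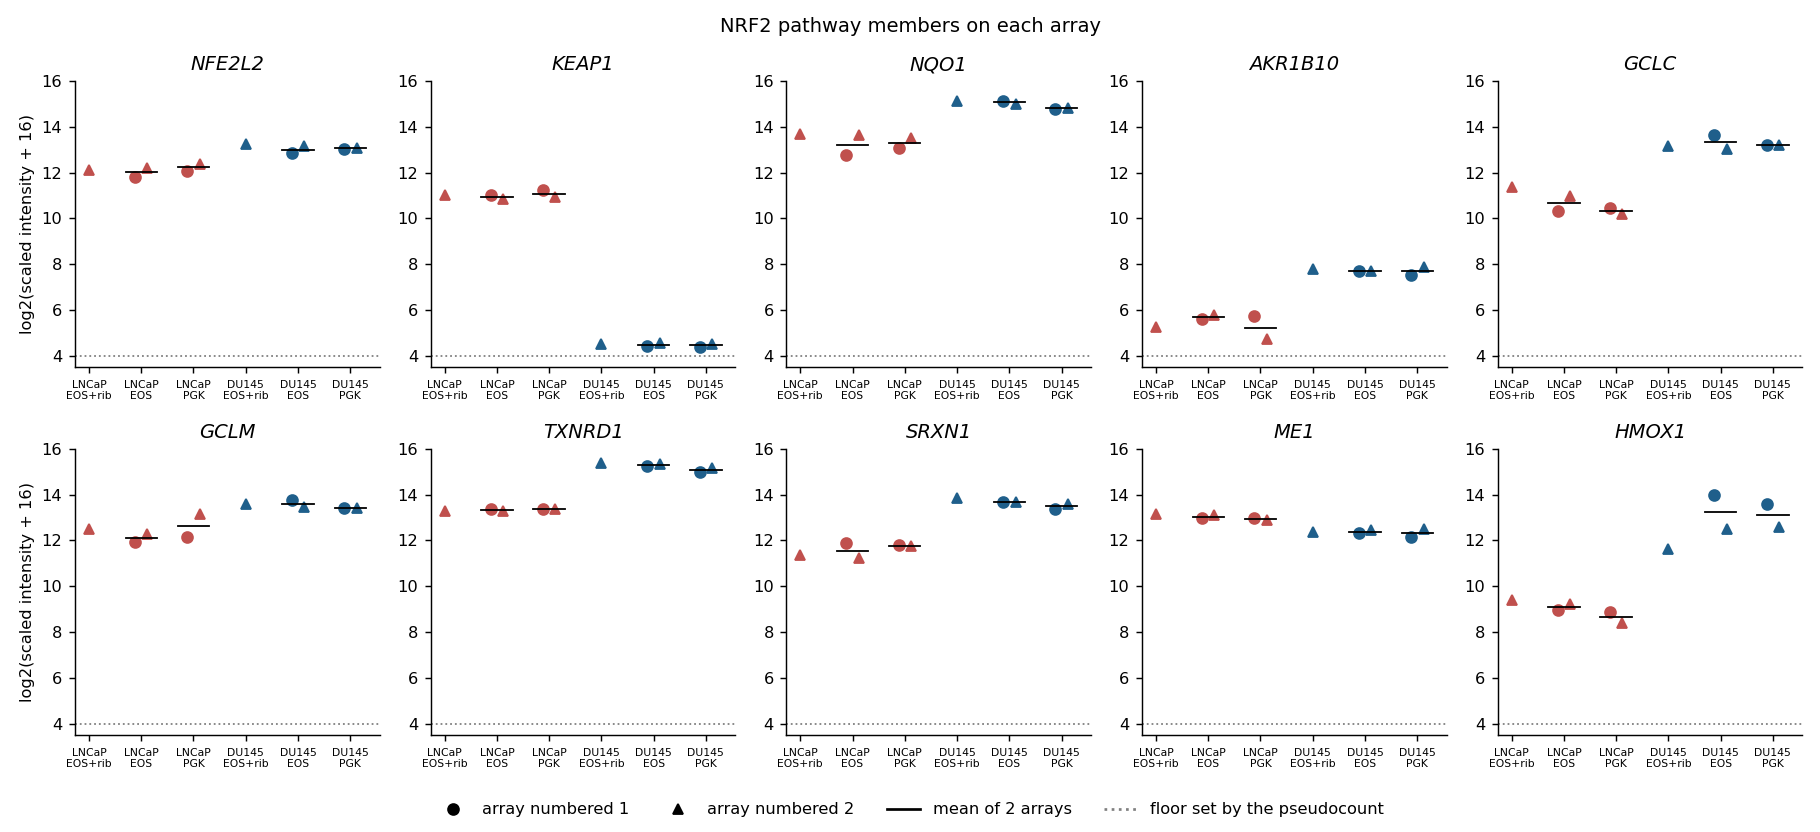
Level of each of the 10 genes on each array, as log2(scaled intensity + 16), with LNCaP groups in red left of DU145 groups in blue. Circles are arrays numbered 1, triangles arrays numbered 2, bars the mean of 2 arrays, and the dotted line the floor of 4; KEAP1 lies near the floor on all 5 DU145 arrays and no gene's LNCaP and DU145 arrays overlap.

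KEAP1, the adaptor that marks NRF2 for destruction, had the largest fitted difference of the 10 genes. In LNCaP it measured 11.00 with ribavirin, 11.01 and 10.83 in EOS cells 1 and 2, and 11.24 and 10.93 in PGK cells 1 and 2, against 4.50, then 4.41 and 4.56, then 4.39 and 4.51 on the matching DU145 arrays. In scaled intensity this is 1800 to 2410 in LNCaP and 4.94 to 7.57 in DU145, where all 5 arrays lay near the floor and below the array median. The difference was 6.54 ± 0.20 (adjusted p = 1.33e-07, limma). KEAP1 passed the filter only through the LNCaP arrays, so this p-value is no support for the difference. Because the DU145 signal is near the floor, the fitted 93.0-fold difference is set by the pseudocount: the log2 difference was 8.18 with a pseudocount of 1 and 4.91 with one of 64. KEAP1 has 1 probe set on the array, so no other probe set could check a failure of that probe set to see the DU145 transcript, which was not tested.

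NFE2L2 itself differed the other way and by less. It measured 12.12 with ribavirin, 11.82 and 12.22 in EOS and 12.09 and 12.37 in PGK cells of LNCaP, against 13.27, then 12.84 and 13.14, then 13.05 and 13.09 in DU145. The highest LNCaP array stayed below the lowest DU145 array, and the difference was -0.90 ± 0.14 (adjusted p = 0.000939, limma). Its other probe sets, which lie far lower in signal, differed by 0.08 and -0.65.

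NQO1, which reduces quinones by a 2-electron step and is a textbook readout of NRF2, was high in both lines and higher in DU145. It measured 13.67 with ribavirin, 12.77 and 13.62 in EOS and 13.08 and 13.51 in PGK cells of LNCaP, against 15.14, then 15.13 and 15.01, then 14.77 and 14.83 in DU145. The difference was -1.69 ± 0.19 (adjusted p = 0.000135, limma), and the other NQO1 probe sets gave -2.45 and -2.24. AKR1B10, an aldo-keto reductase of aldehydes and retinal, was dim in LNCaP, at 5.25 with ribavirin, 5.61 and 5.79 in EOS and 5.74 and 4.71 in PGK cells, against 7.79, then 7.69 and 7.69, then 7.52 and 7.87 in DU145. All 5 LNCaP arrays were below the array median for AKR1B10, and the difference was -2.23 ± 0.31 (adjusted p = 0.00048, limma). It ranged from -2.79 with a pseudocount of 1 to -1.45 with one of 64. AKR1B10 passed the filter only through the DU145 arrays, so this p-value is no support for the difference. AKR1B10 has close paralogs and 1 probe set, so its signal is uncertain.

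The enzyme that starts glutathione synthesis, glutamate-cysteine ligase, has a catalytic subunit (GCLC) and a modifier subunit (GCLM), and both were lower in LNCaP. GCLC measured 11.36 with ribavirin, 10.33 and 10.99 in EOS and 10.45 and 10.18 in PGK cells of LNCaP, against 13.18, then 13.65 and 13.02, then 13.22 and 13.22 in DU145. The difference of -2.79 ± 0.19 (adjusted p = 9.53e-06, limma) came with -2.41 and -1.41 at its other probe sets. GCLM measured 12.51 with ribavirin, 11.92 and 12.29 in EOS and 12.13 and 13.16 in PGK cells of LNCaP, against 13.58, then 13.75 and 13.48, then 13.42 and 13.44 in DU145. LNCaP PGK 2 stood close to DU145 for this gene, and the GCLM difference of -1.15 ± 0.22 (adjusted p = 0.00262, limma) was -1.40 without that array. GCLM was not called among PGK arrays alone (-0.79, adjusted p = 0.0818) nor with its probe sets averaged (-0.63, adjusted p = 0.0534), since 1 of its other probe sets gave -1.22 and the other 0.46.

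Both thiol-reducing targets were lower in LNCaP, and TXNRD1 varied less within LNCaP than SRXN1 did. TXNRD1, the cytosolic thioredoxin reductase, measured 13.27 with ribavirin, 13.36 and 13.30 in EOS and 13.39 and 13.38 in PGK cells of LNCaP, against 15.37, then 15.25 and 15.36, then 15.01 and 15.16 in DU145. Its difference was -1.84 ± 0.09 (adjusted p = 1.37e-06, limma), the smallest standard error among the 10 genes. SRXN1, sulfiredoxin, which repairs over-oxidised peroxiredoxins, measured 11.36 with ribavirin, 11.89 and 11.23 in EOS and 11.79 and 11.76 in PGK cells of LNCaP, against 13.84, then 13.68 and 13.70, then 13.37 and 13.61 in DU145. Its difference was -1.92 ± 0.16 (adjusted p = 2.43e-05, limma).

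ME1, the cytosolic malic enzyme, makes NADPH from malate and was the 1 target higher in LNCaP. It measured 13.16 with ribavirin, 12.98 and 13.11 in EOS and 12.98 and 12.89 in PGK cells of LNCaP, against 12.39, then 12.31 and 12.44, then 12.14 and 12.52 in DU145. The groups did not overlap and the difference was 0.64 ± 0.12 (adjusted p = 0.00296, limma). A second ME1 probe set gave 0.07, and the mean of both gave 0.35 (adjusted p = 0.063), so this call rests on 1 probe set.

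HMOX1, haem oxygenase 1, which opens the haem ring and releases iron, biliverdin and carbon monoxide, differed most among the targets and varied most within DU145. It measured 9.41 with ribavirin, 8.94 and 9.21 in EOS and 8.86 and 8.41 in PGK cells of LNCaP, against 11.62, then 13.97 and 12.51, then 13.60 and 12.59 in DU145. The difference was -4.31 ± 0.34 (adjusted p = 1.96e-05, limma). Within DU145 the arrays numbered 1 had the highest HMOX1 levels, array 2 minus array 1 being -1.46 in EOS and -1.01 in PGK cells, while in LNCaP these differences were 0.27 and -0.44.

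Every member kept its direction in each of the 5 matched pairs of arrays (PGK 1, PGK 2, EOS 1, EOS 2 and ribavirin), and none overlapped between the 5 LNCaP and 5 DU145 arrays, as was so for 42.5% of all genes. KEAP1 and AKR1B10 passed the filter only through the arrays of 1 line, so their separation is no support. TXNRD1 ranged over the pairs only between -2.09 and -1.62. GCLM ranged between -1.83 in the EOS 1 pair and -0.28 in the PGK 2 pair, and HMOX1 between -5.03 in the EOS 1 pair and -2.22 in the ribavirin pair.

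**Figure D2:**
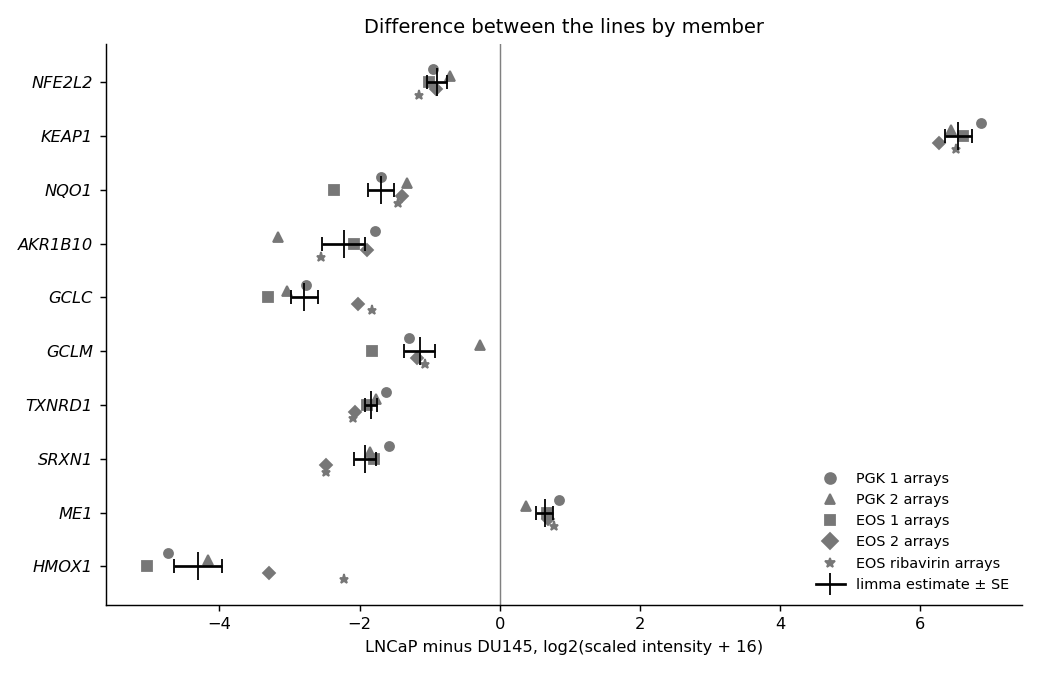
LNCaP minus DU145 for each gene, in log2(scaled intensity + 16), as the limma estimate with its standard error (black) and as the difference within each of 5 matched array pairs (grey symbols). KEAP1 and ME1 lie right of 0 and the other 8 genes left of 0 in all 5 pairs, with the GCLM pair of PGK 2 arrays nearest to 0 at -0.28.

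The wider pathway was read from 7 lists holding 72 further genes, of which 63 passed the filter. Between the lines 16 were higher and 25 lower in LNCaP, so 65.1% were called against 46.3% of all genes. The lists were chosen with earlier results of these data known, so this share is a description and no separate support. Of the 56 list genes above the median of every array, 16 were higher, 20 were lower and 20 were not called. The direction differed between the lists.

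Among regulators and partners of NRF2, 2 of 11 tested genes were higher in LNCaP, 7 were lower and 2 were not called, with a median difference of -0.79. Over all genes, 22.6% were called higher and 23.7% lower. SQSTM1 (p62), an autophagy receptor that can hold KEAP1 away from NRF2 and is itself a target, ranged between 11.73 and 11.93 in LNCaP and between 13.18 and 13.89 in DU145, with a difference of -1.71 ± 0.15 (adjusted p = 3.61e-05, limma). The small MAF partners MAFF (2.83-fold) and MAFG (2.49-fold) were lower too. MAFF overlapped between the lines, at 8.02 to 10.89 in LNCaP and 10.56 to 11.29 in DU145. On the EOS 2 arrays it was higher in LNCaP (10.89 against 10.71), as it was with ribavirin (10.88 against 10.80). RBX1, the RING subunit of the CUL3 ligase, was higher in LNCaP by 0.86 ± 0.12, and DPP3, which can compete with NRF2 for KEAP1, by 0.73 ± 0.19.

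Quinone, carbonyl and aldehyde reducing enzymes were lower in LNCaP in 7 of 10 tested genes, higher in 1 and not called in 2, with a median of -1.19. Of all genes, 23.7% were called lower and 22.6% higher. AKR1C3 (-5.85 ± 0.46), AKR1C2 (-4.33 ± 0.77) and AKR1C1 (-3.73 ± 0.58), which reduce ketosteroids and carbonyls, differed most. These 3 genes are near-identical copies whose probe sets can see each other's transcripts, so their separate values are uncertain. AKR1C3 was above the array median on only 6 of 10 arrays and AKR1C2 on 8, those below being LNCaP arrays. In LNCaP, AKR1C3 fell to 4.24, near the floor of 4. EPHX1, the microsomal epoxide hydrolase, was higher in LNCaP by 1.91 ± 0.38.

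Thioredoxin and peroxiredoxin genes went the other way: 6 of 10 tested genes were higher in LNCaP, 1 was lower and 3 were not called, with a median of 0.55. The shares over all genes were 22.6% higher and 23.7% lower. The peroxiredoxins PRDX2 (2.80 ± 0.14) and PRDX6 (0.90 ± 0.10), which reduce peroxides, and TXNIP (2.29-fold), which binds and inhibits thioredoxin, were higher. TXNIP overlapped between the lines, at 11.80 to 13.12 in LNCaP and 10.15 to 12.23 in DU145. In PGK cells 1 and 2 TXNIP measured 12.05 and 11.80 in LNCaP, against 12.23 and 11.47 in DU145. In EOS cells 1 and 2 it measured 13.12 and 12.77 in LNCaP, against 10.15 and 11.11 in DU145. Thioredoxin itself (TXN), the substrate of TXNRD1, was lower (-0.74 ± 0.09).

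Of the 10 cystine uptake and glutathione genes outside the ligase, 1 was higher, 3 were lower and 6 were not called, with a median of 0.04; 46.3% of all genes were called. GPX1, a glutathione peroxidase of the cytosol, was higher in LNCaP by 2.68 ± 0.19, with 13.26 to 13.70 in LNCaP and 10.49 to 11.21 in DU145. GPX3, the secreted glutathione peroxidase, was lower (-5.65 ± 0.36) and passed the filter only through the 5 DU145 arrays. GLRX, glutaredoxin (-1.66 ± 0.28), and SLC7A11, the cystine importer (-0.77 ± 0.22), were lower. SLC7A11 was called among EOS arrays alone (-1.28, adjusted p = 0.0153, limma) and not among PGK arrays alone (-0.27, adjusted p = 0.559, limma), but the difference between these values was not called (-1.01, adjusted p = 1, limma).

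Of 7 tested NADPH supply genes, 3 were higher, 3 were lower and 1 was not called, with a median of -0.22, while 46.3% of all genes were called. IDH1, the cytosolic isocitrate dehydrogenase, was higher in LNCaP by 1.48 ± 0.14, as were ME2, a mitochondrial malic enzyme, by 0.63 ± 0.16 and TALDO1, transaldolase of the pentose phosphate pathway, by 0.35 ± 0.09. ME3, the other mitochondrial malic enzyme (-3.58 ± 0.39), NNT, the mitochondrial transhydrogenase (-1.70 ± 0.32), and TKT, transketolase (-0.72 ± 0.10), were lower. ME3 was above the array median on 7 of 10 arrays and fell to 4.57 in LNCaP, near the floor of 4.

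Haem and iron genes were called in 3 of 8, against 46.3% of all genes: FECH, the last enzyme of haem synthesis (1.59 ± 0.15), and HMOX2, the constitutive haem oxygenase (0.62 ± 0.16), were higher in LNCaP, and FTL, ferritin light chain, was lower (-1.39 ± 0.12). HMOX2 and HMOX1 thus differed in opposite directions between the lines. Among 7 tested other genes reported as targets, 1 was higher, 3 were lower and 3 were not called, with a median of -0.25. Of all genes, 46.3% were called. Called in this list were catalase, CAT (0.37 ± 0.13), against OSGIN1 (-3.05 ± 0.46), the ubiquitin ligase TRIM16 (-2.63 ± 0.23) and the mitochondrial superoxide dismutase SOD2 (-0.91 ± 0.25). OSGIN1 was above the array median on 6 of 10 arrays and ranged from 4.37 to 6.54 in LNCaP, where the floor is 4.

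**Figure D3:**
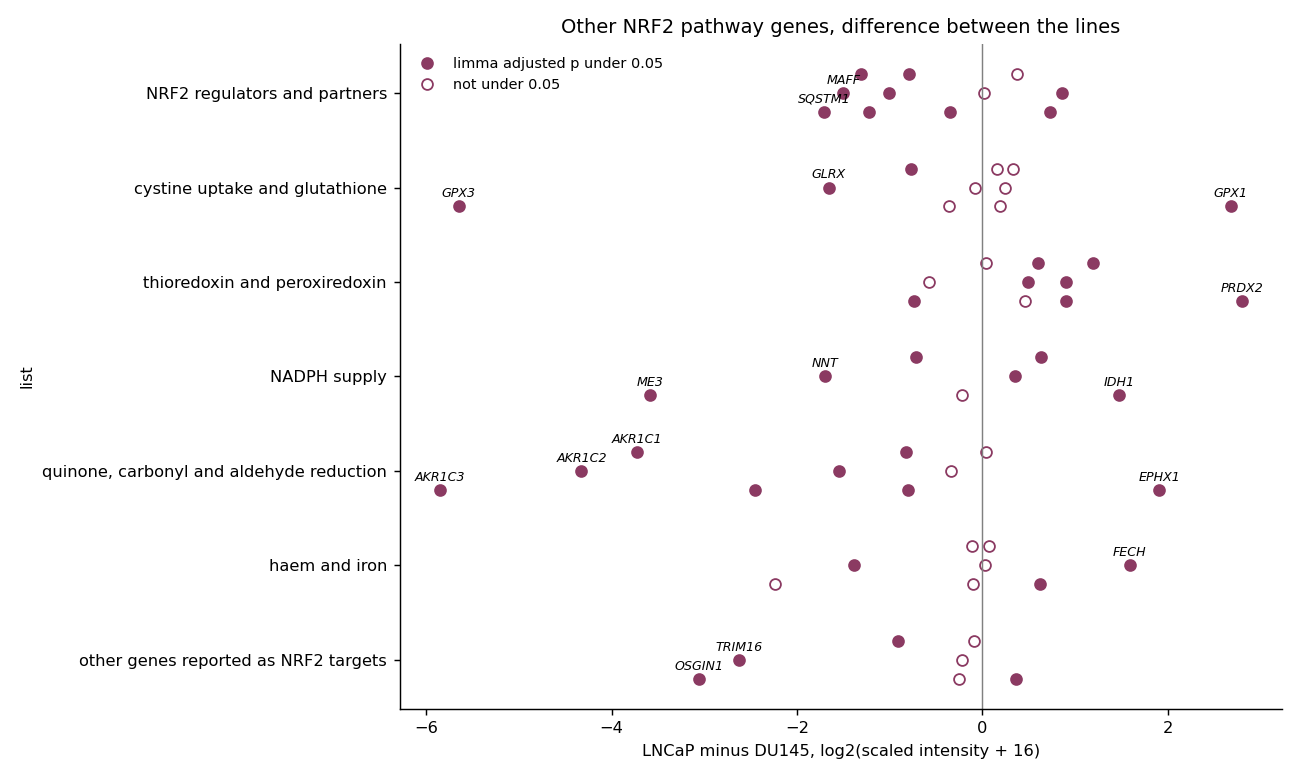
LNCaP minus DU145, in log2(scaled intensity + 16), for the 63 tested genes of the 7 lists, 1 point per gene; filled points had a limma adjusted p under 0.05. Points to the left, such as AKR1C3 at -5.85, are lower in LNCaP, and points to the right, such as PRDX2 at 2.80, are higher.

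The comparison the series was made for, EOS-selected against PGK control cells, gave no called member in either line. Limma called 0 of 14313 genes in each line (0%), while 596 genes (4.16%) in LNCaP and 226 (1.58%) in DU145 had an unadjusted p under 0.05, none of them a member. In LNCaP the estimates for the 8 targets lay between -0.54 for GCLM and 0.48 for AKR1B10, and in DU145 between -0.01 for AKR1B10 and 0.27 for NQO1. The member with the smallest unadjusted p in LNCaP was GCLM (-0.54 ± 0.31, adjusted p = 0.999, limma), at 11.92 and 12.29 in EOS against 12.13 and 13.16 in PGK cells, where 1 PGK array lay apart. In DU145 it was TXNRD1 (0.22 ± 0.13, adjusted p = 1, limma), at 15.25 and 15.36 in EOS against 15.01 and 15.16 in PGK cells. KEAP1 stayed near the floor in DU145 in both states, with a difference of 0.03 ± 0.28, and NFE2L2 differed by -0.21 ± 0.20 in LNCaP and -0.08 ± 0.20 in DU145. The difference of the EOS effects between the lines was called for 0 members and 0 of all genes, with 464 genes (3.24%) at an unadjusted p under 0.05.

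The 2 pairs of a line gave the same sign for 4 of the 8 targets in LNCaP and for 4 of 8 in DU145. In LNCaP pair 1, 3 targets were higher in the EOS array and 5 lower, between -0.32 and 0.10, and in pair 2 there were 5 higher and 3 lower, between -0.87 for GCLM and 1.09 for AKR1B10. The PGK 2 array of LNCaP held the highest GCLM and the lowest GCLC, AKR1B10 and HMOX1 levels of its line. In DU145 pair 1 all 8 targets were higher in the EOS array, by 0.17 to 0.42, while in pair 2 there were 4 higher and 4 lower, between -0.20 and 0.20. Over all genes tested, the median difference in pairs 1 and 2 was 0.04 and 0.05 in LNCaP and -0.03 and 0.00 in DU145.

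The 63 list genes gave 0 calls for EOS against PGK in LNCaP, in DU145 and over both lines. TXNIP had the smallest p in its list in both lines and opposite signs: it measured 13.12 and 12.77 in EOS against 12.05 and 11.80 in PGK cells of LNCaP, and 10.15 and 11.11 in EOS against 12.23 and 11.47 in PGK cells of DU145. The differences were 1.01 ± 0.35 (adjusted p = 0.999, limma) in LNCaP and -1.22 ± 0.35 (adjusted p = 1, limma) in DU145. The difference between these effects did not pass adjustment either (adjusted p = 1, limma). FTL, ferritin light chain, was estimated above 0 in both lines, at 0.32 ± 0.17 in LNCaP and 0.22 ± 0.17 in DU145, without a call.

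Ribavirin against untreated EOS cells also gave no called member, and limma called 0 of 14313 genes in each line (0%). An unadjusted p under 0.05 was seen for 289 genes (2.02%) in LNCaP and 250 (1.75%) in DU145, and over the members for 1, HMOX1 in DU145. HMOX1 measured 11.62 in DU145 with ribavirin, against 13.97 and 12.51 in EOS cells 1 and 2, a difference of -1.61 ± 0.59 (adjusted p = 1, limma). Against EOS 2 alone, the array with its number, it was -0.88, and against EOS 1 alone it was -2.35, so the size rests on which EOS array is used. The ribavirin array was the lowest of the 5 DU145 arrays for HMOX1, and it shares the higher ACTB ratio of arrays numbered 2, whose part was not tested. In LNCaP, HMOX1 measured 9.41 with ribavirin, against 8.94 and 9.21 in EOS cells, a difference of 0.33 ± 0.59. The LNCaP effect minus the DU145 effect was 1.94 ± 0.83 (adjusted p = 1, limma).

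GCLC in LNCaP measured 11.36 with ribavirin, against 10.33 and 10.99 in EOS cells, a difference of 0.70 ± 0.34 (adjusted p = 0.999, limma). Against EOS 2 alone it was 0.37. In DU145 the GCLC difference was -0.16 ± 0.34, and 0.16 against EOS 2 alone. Within the number 2 pairs 6 of 8 targets were above 0 and 2 below in each line, with medians of 0.09 in LNCaP and 0.11 in DU145. Over all genes tested, the medians in these pairs were -0.01 in LNCaP and 0.02 in DU145. Both lines had NQO1, GCLC, GCLM and SRXN1 above 0 in these pairs, by 0.05 to 0.37, and KEAP1 differed by 0.17 in LNCaP and -0.06 in DU145. With 1 ribavirin array per line, these values carry no replicate spread of their own: limma assumes that the lone array varies like the other groups. No list gene was called, and the smallest p in DU145 was that of TXNIP, at 11.88 with ribavirin against 10.15 and 11.11 in EOS cells (1.25 ± 0.43, adjusted p = 1, limma).

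**Figure D4:**
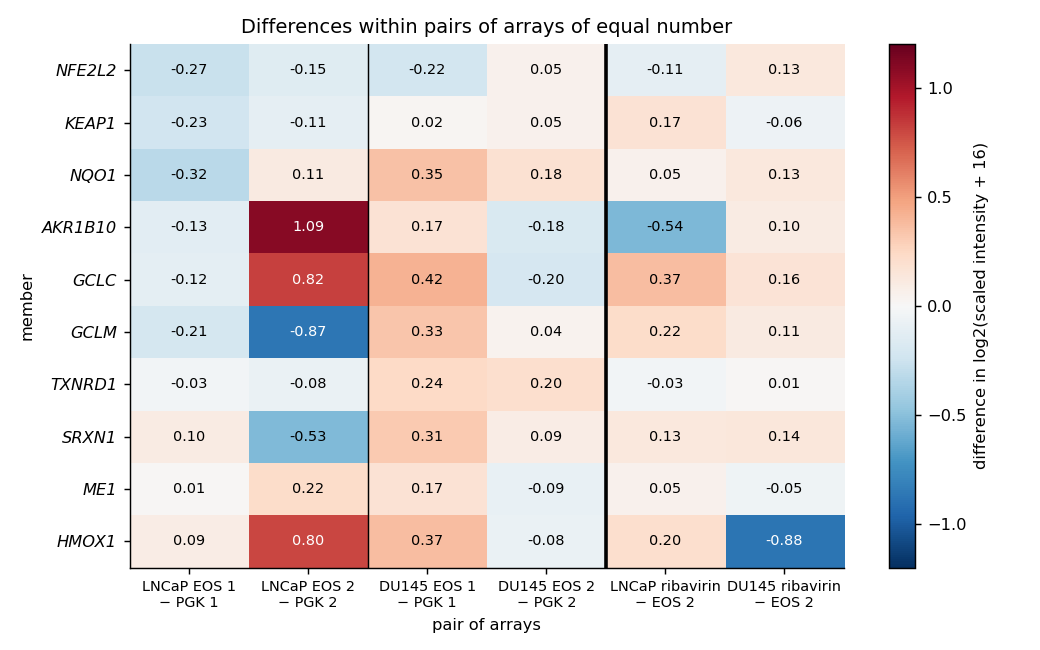
Differences in log2(scaled intensity + 16) within pairs of arrays of equal number: EOS minus PGK for numbers 1 and 2 in LNCaP and DU145, and ribavirin minus EOS 2 in each line. All 8 targets are above 0 in DU145 pair 1 and 4 of 8 in DU145 pair 2; the largest values are in LNCaP pair 2, between -0.87 for GCLM and 1.09 for AKR1B10, and for HMOX1 with ribavirin in DU145 at -0.88.

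After each line was centred on its own mean, the mean of the 8 targets was highest on DU145 EOS 1 (0.23), LNCaP ribavirin (0.15) and LNCaP EOS 2 (0.10). GCLC followed this mean most closely over the 10 arrays (Pearson r = 0.885), then HMOX1 (0.680) and NQO1 (0.598), then ME1 (0.306), GCLM (0.182), AKR1B10 (0.104), TXNRD1 (-0.158) and SRXN1 (-0.505). Each of these genes is part of the mean it is set against. Outside the pathway, the genes closest to the mean were ZNF101 (r = 0.962), ZC3H7A (0.944), NSMAF (0.923), DCUN1D1 (0.918) and EMILIN3 (0.914). They were picked as the closest of all genes over 10 arrays that share their scaling and array numbers, and the values are a description.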

How the data were processed

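Total RNA of 10 transduced cell line samples was hybridised to Affymetrix arrays. As deposited, each probe set had a linear intensity, made with MAS5 and affy per the submitters' processing notes, which give no versions. The background correction is not given in the sources used here. Each array was scaled to a 2% trimmed mean of 500, and log2(intensity + 16) was taken, so changes of dim genes are understated. Of 54675 probe sets, 62 were array controls, 41091 had 1 symbol, 1801 several and 11721 none, per the platform annotation. Probe sets above the array median on at least 2 arrays were kept (33451, of which 27494 had 1 symbol). The brightest per gene gave 14313 genes. Tests used limma 3.58.1 (R 4.3.3), as cell means of 6 groups with an intensity trend and 4 residual degrees of freedom. Adjusted p-values are Benjamini-Hochberg over all genes. Members and lists were chosen with earlier results of these data known. Named list genes were, per list and comparison, up to 3 called in each direction with the largest change, or else the 2 of smallest p, of which the text gives those that add to the members. Exact permutation of 2 arrays against 2 gives at least p = 0.333, and the few arrays limit precision. Scaling, normalization, pseudocount, filter, probe set choice, trend, replicate block and each array were varied.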

Additional observations from a re-analysis of the deposited data

How the results depend on the processing

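Between the lines, the 10 members gave 208 values under the alternatives: 0 changed sign and 11 lost their call. Of the 11, 8 came from the intensities as deposited, where the unequal scale of arrays 1 and 2 adds to the spread: there 2 members (1 higher, 1 lower) and 2 list genes were called, beside 481 of all genes (3.36%). The others were GCLM and ME1 with probe sets averaged and GCLM among PGK arrays alone. Leaving out each array in turn kept 10 members called (10 to 10) and 34 to 42 list genes. The line difference uses only PGK and EOS arrays, so leaving out a ribavirin array could not move it. Such runs are among the 208 values. With the filter for a signal above the median on all arrays, KEAP1 and AKR1B10 were not tested. For EOS and ribavirin, 1246 values gained 0 calls, and 70 changed sign without ever being called. The shared numbers give only 2 pairs per line, and the labels do not say what a number means. Deviations from group means correlated at r = 0.484 in LNCaP and 0.123 in DU145 across genes. With the replicate block, 10 members were called between the lines and 0 in every EOS and ribavirin comparison, and 8027 of all genes were called between the lines, against 6626 without it. In these comparisons it changed no member's call, and among PGK arrays alone GCLM was called with it (adjusted p = 0.00769, limma). Unscaled, the median EOS minus PGK difference over all genes in DU145 was -0.18, against -0.02 scaled, and that of the difference between the EOS effects 0.22, against 0.06. Unscaled intensities were not run for ribavirin, and leaving out a ribavirin array gives no ribavirin value for its line. Signal near the floor limits KEAP1 in DU145 and AKR1B10 in LNCaP.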
